A study of Mus musculus with 55 samples.

Results

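Islets of βEedKO mice were compared with islets of heterozygous mice at 8 weeks of age, by RNA-seq of whole islets. The members are the 3 βEedKO libraries (replicates 1, 4 and 5) and the 3 heterozygous libraries (replicates 1, 2 and 3), chosen by the genotype and age in their labels. They are 6 of the 16 bulk RNA-seq libraries of islets, which form 6 groups of 3 genotypes and 2 ages, and of 55 samples in the series. The mice were C57B6/J males. βEedKO mice are Eed -/- in the labels and carry 2 floxed Eed alleles and RIP-Cre, in which the rat insulin promoter drives Cre recombinase, so that Eed is deleted in β cells and not by design in the other islet cells. Whether the heterozygous and the wild-type mice carried Cre is not stated in the sources used here. Each library came from the hand-picked islets of 1 or 2 animals, after culture in RPMI medium, with no treatment named. The 3 wild-type libraries of the same age (replicates 1, 3 and 4) and the groups of 25 weeks serve below only as reference.

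Eed is a core subunit of Polycomb repressive complex 2 (PRC2), which trimethylates lysine 27 of histone H3 (H3K27me3) through its catalytic subunits Ezh2 or Ezh1. Eed binds that mark and stimulates the enzyme, and without Eed the complex cannot maintain the modification. In differentiated cells PRC2 keeps developmental regulators of other lineages silent, often at start sites that also carry the activating mark H3K4me3 and are then called bivalent. In β cells Polycomb is also known for silencing the Ink4a/Arf locus, whose products halt the cell cycle.

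The question of the comparison is which genes change in islets when β cells lose PRC2 function, with heterozygous rather than wild-type animals as control. Levels are given as CPM, the deposited read counts per 1000000 reads of the library after TMM scaling, which sets the bulk of genes equal between libraries. Values of a group are listed in the order of its replicates. Fold changes are βEedKO against heterozygous on the log2 scale, with their standard error, from the quasi-likelihood test of edgeR in a fit of all 16 libraries. A gene was called when its p, adjusted by the Benjamini-Hochberg method over the 18828 genes tested, was under 0.05. The 6 libraries held 11825016 to 22925359 assigned reads, and 3 reads correspond to 0.133 to 0.26 CPM in them.

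The targeted gene was lower in the mutants but did not pass the test in this comparison. Eed (ENSMUSG00000030619.9, chromosome 7 from 89954654 to 89980983) had 14.9, 13.4 and 14.8 CPM in the βEedKO libraries and 17.2, 17.1 and 20.5 CPM in the heterozygous libraries. All 3 βEedKO values lay below all heterozygous values, and the log2 fold change was -0.35 ± 0.18, adjusted p = 0.252. The wild-type libraries had 23.9, 33.1 and 31.2 CPM, and against them the difference was -1.03 (adjusted p = 0.0223). These are counts over the whole gene in whole islets, so reads from exons outside a deleted part, and from cells other than β cells, are included. In such bulk samples fewer cells of a type and less RNA per cell cannot be told apart.

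The other PRC2 genes did not pass the test either. Of the 11 subunits and cofactors listed, 0 were called by edgeR, 2 had an unadjusted p under 0.05 and DESeq2 called 1 lower. Their median log2 fold change was 0.07 against 0.01 over all genes tested. Suz12, the subunit that joins the complex together, had 40.6, 56.8 and 53.3 CPM in βEedKO and 49.6, 48.9 and 49.0 CPM in heterozygous islets, and the groups overlapped. Ezh2 had 7.59, 4.87 and 4.59 against 4.39, 7.10 and 4.75 CPM. Phf1, which guides PRC2 to chromatin, had 108, 72.8 and 80.3 against 147, 128 and 139 CPM, with all βEedKO values below all heterozygous ones (adjusted p = 0.0832 by edgeR and 0.0289 by DESeq2). Without βEedKO replicate 1, Phf1 and Ezh1 were called lower.

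In all, 892 genes were called (4.74% of the genes tested), 678 higher (3.60%) and 214 lower (1.14%) in βEedKO. Counts of called genes in the lists below are to be set against these shares. With library size alone in place of TMM scaling the split was 479 higher and 26 lower, and the median log2 fold change of all genes was 0.16 instead of 0.01. Of the falls described below, Peg3, Gad1, Th, Sytl4, Slc2a2, Ero1lb, Pcsk1, Prlr, Trpm5, Ucn3, Zfp110, Zfp667, Per2 and Herpud1 were not called with that scaling (adjusted p from 0.0751 to 0.294), and of the rises Emx1, Nkx2-3, Hoxc9, Foxd1, Tfap2a, Shh and Vgf (adjusted p from 0.0521 to 0.0756). In a fit of the 6 libraries alone, which tested 15913 genes, 136 were called, 4 of the developmental transcription factors described below among them, and 0 genes of the interferon-induced, MHC class I, neurotransmission, signalling pathway, Hox and β cell lists. The median log2 fold change was 2.47 among the genes called higher and -1.14 among those called lower. Many of the rises began near the limit of detection: 250 of the 678 genes (36.9%) had under 1 CPM on average in heterozygous islets, against 23.2% of all genes tested, and 36 had no read in any heterozygous library. In 624 of the genes called higher (92.0%) every βEedKO library lay above every heterozygous library, which held for 12.7% of all genes tested. In 209 of the genes called lower (97.7%) every βEedKO library lay below, which held for 14.5% of all. The same 6 libraries gave the calls, so these 2 shares are not independent of them and support nothing further. Protein-coding genes made up 95.1% of the genes called higher and 90.7% of those called lower, against 82.7% of the genes tested.

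**Figure D1:**
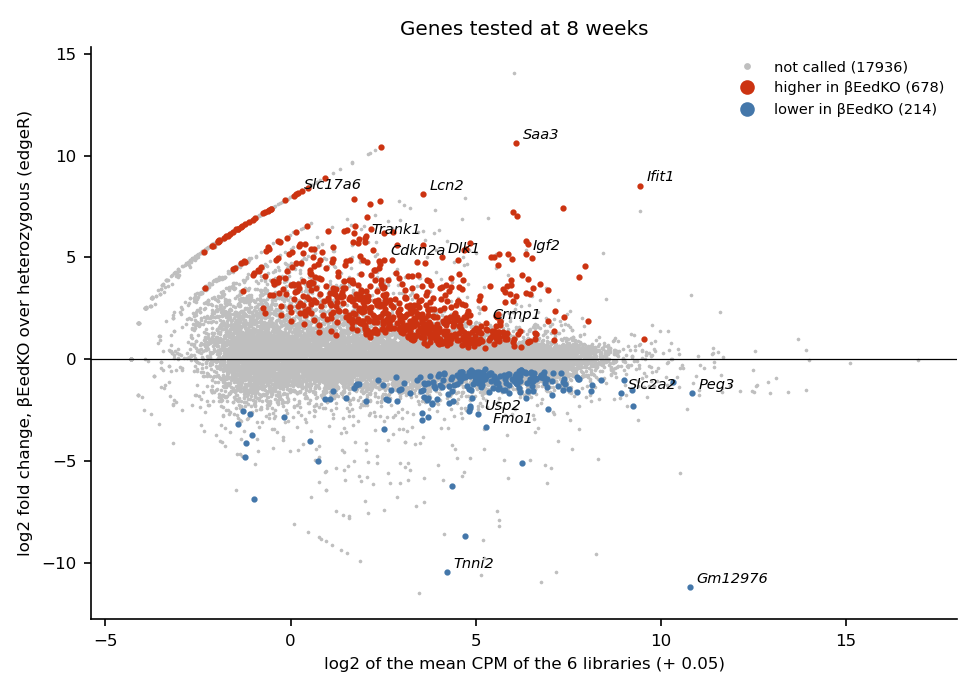
Log2 fold change of βEedKO against heterozygous islets at 8 weeks (vertical axis) against the log2 mean CPM of the 6 libraries (horizontal axis, 0.05 CPM added), 1 point per gene tested. The 678 genes called higher (red) have a median of 2.47 and the 214 called lower (blue) one of -1.14, and many of the former lie at low mean levels, where the 17936 genes not called (grey) also spread widely.

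The 3 βEedKO libraries did not contribute alike. Over the 678 genes called higher, the median log2 ratio to the heterozygous mean was 1.14 in replicate 1, 2.22 in replicate 4 and 2.19 in replicate 5. Over the 214 genes called lower it was -0.82, -1.27 and -1.33. Replicate 1 lay above all heterozygous libraries in 624 of the 678 genes, against 33.1% of all genes tested. It lay below all of them in 210 of the 214, against 31.0% of all genes tested. Replicate 1 took part in the fit that called these genes, so these counts are not independent of the calls. Without replicate 1 the test called 4014 genes, 2032 higher and 1982 lower, and with replicate 1 as the only βEedKO library it called 68, all higher, of which 49 were among the 892.

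**Figure D2:**
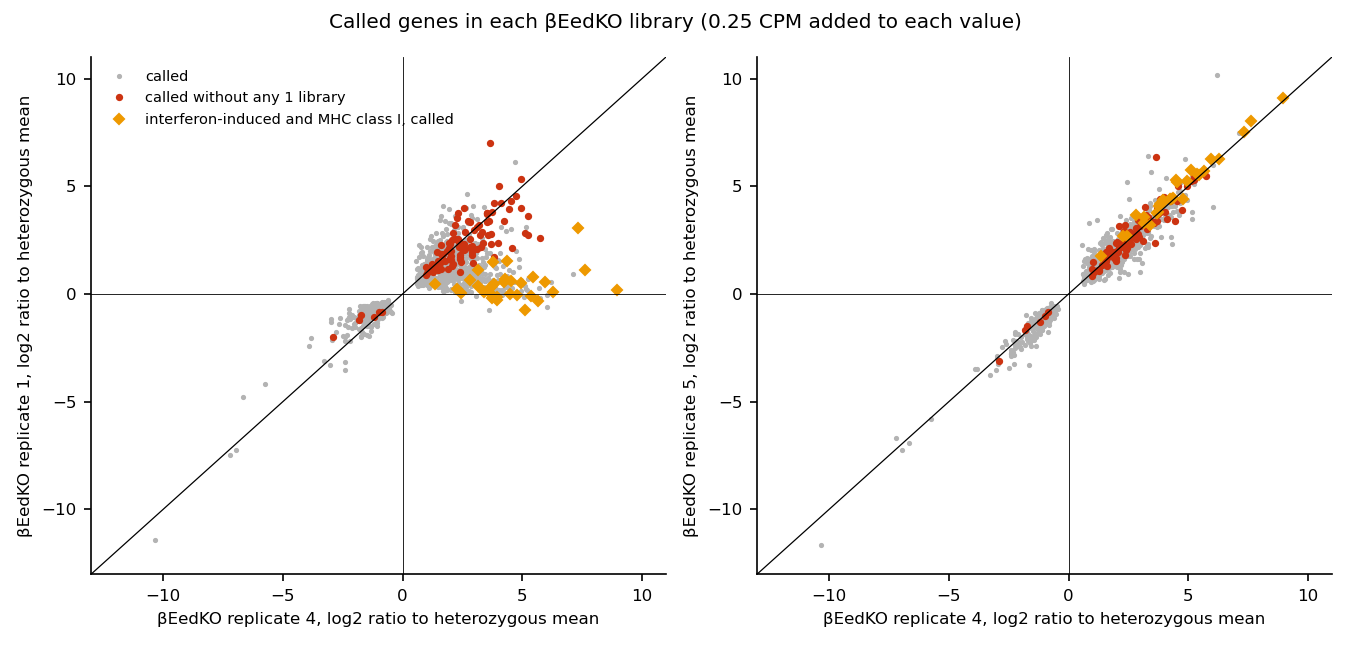
Log2 ratio of each called gene to the mean of the heterozygous libraries (0.25 CPM added) in βEedKO replicates 1 and 5 (vertical axes) against replicate 4 (horizontal axis). Most genes lie near the diagonal for replicates 4 and 5. In replicate 1 most interferon-induced and MHC class I genes (orange diamonds) stay near 0. The 103 genes called whichever 1 of the 6 libraries was left out (red) move in all, which their selection favours.

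Summed over lists of genes, the libraries stood apart in several respects that bear on the results. The 36 interferon-induced genes summed to 307, 369 and 332 CPM in the heterozygous libraries and to 322, 10074 and 10938 CPM in the βEedKO libraries, so replicates 4 and 5 were high and replicate 1 was not. Wild-type replicates 3 and 4 were high as well, at 6847 and 7575 CPM, and wild-type replicate 1 was not, at 404 CPM. Skeletal muscle genes summed to 2111 CPM in heterozygous replicate 2 and to at most 10.7 CPM in the other 5 libraries, and adipocyte genes to 5671 CPM there and to at most 452 CPM elsewhere. Acinar genes, from the exocrine tissue around islets, summed to 226234, 65841 and 90976 CPM in heterozygous and 62188, 35725 and 46646 CPM in βEedKO islets, without overlap. Of the 25 acinar genes 0 were called by edgeR or DESeq2 and 0 had an unadjusted p under 0.05, their median log2 fold change was -1.33, and their part in the results below was not tested. βEedKO replicate 1 had a read for 25402 genes, against 20000 to 22943 in the other 5. Of the 892 called genes, 103 stayed called whichever 1 of the 6 libraries was left out, 97 of them higher and 6 lower.

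**Figure D3:**
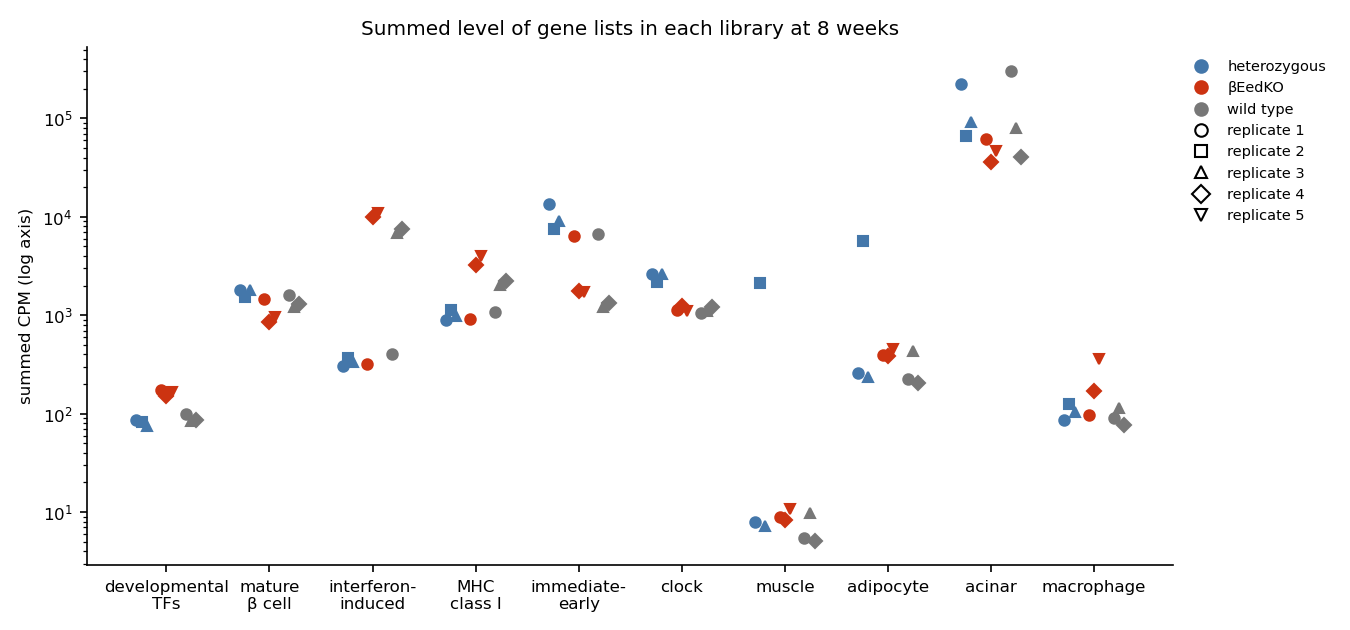
Summed CPM of 10 gene lists (log axis) in each library of 8 weeks, by group, with the replicate number as marker. Developmental transcription factors are higher in all 3 βEedKO libraries, interferon-induced and MHC class I genes only in βEedKO replicates 4 and 5 among the 6 compared, and muscle and adipocyte genes are high in heterozygous replicate 2.

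Start sites that are bivalent in wild-type islets held a larger share of the genes that rose than of the genes tested. A chromatin state map that the authors deposited for wild-type islets gives each stretch of the autosomes a letter, from ChIP-seq and DNA methylation. States L and M carry both H3K4me3 and H3K27me3. They held the start sites of 3435 genes tested (18.2%), but of 344 of the 678 genes called higher (50.7%) and of 15 of the 214 called lower (7.01%). State L had 257 of 2528 genes called higher (10.2%) and state M 87 of 907 (9.59%), with 0 called lower in M. The active state A had 58 of 6543 called higher (0.886%) and 116 called lower (1.77%), which made up 54.2% of all genes called lower. The share of L and M among the genes called higher was 63.6% without heterozygous replicate 2, 58.8% with βEedKO replicate 1 as the only mutant library, and 31.3% without βEedKO replicate 1. Of the 97 genes that rose whichever library was left out, 43 were in state L and 21 in state M. These shares describe genes and have no test, since genes are not replicates. The genes tested had passed a filter on low counts. A gene near 0 elsewhere passes it only through the group in which it is high. The shares therefore describe the genes that passed and not all genes of a state.

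**Figure D4:**
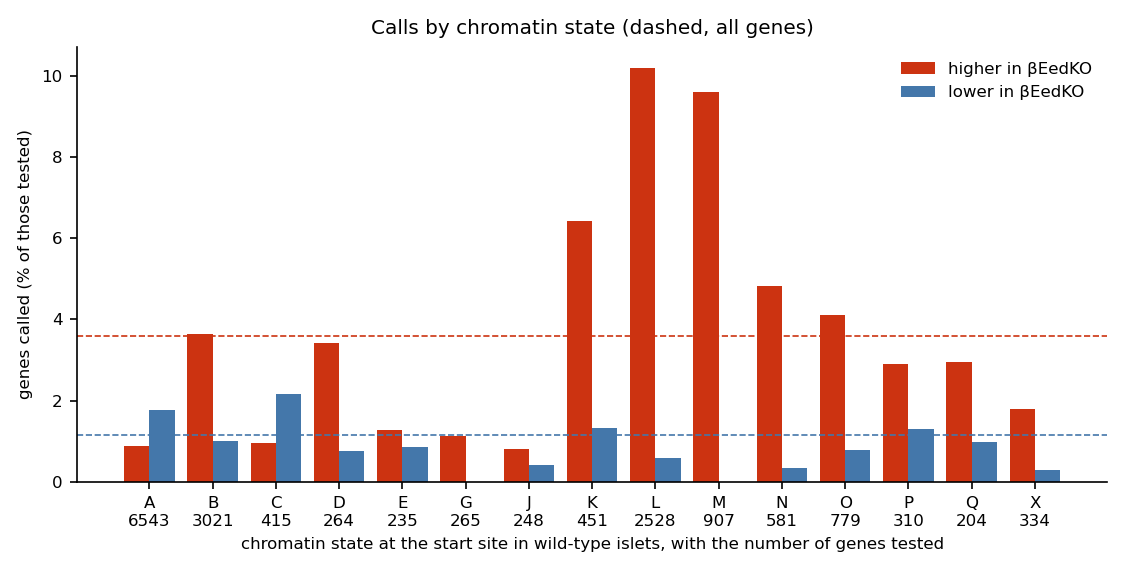
Share of tested genes called higher (red) or lower (blue) in βEedKO, in percent, by chromatin state at the start site in wild-type islets, for states with at least 200 tested genes. Dashed lines mark the shares over all genes, 3.60% and 1.14%, and the bars of states L and M, 10.2% and 9.59% higher, are the tallest.

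Trank1 and Cartpt in state M and Clstn2 in state L were chosen, after their values were seen, from the genes that rose whichever library was left out, and their promoters are shown as examples of such start sites. Each sequence is the 250 bases before the RefSeq start of the gene on GRCm38.p6, read 5′ to 3′ on the gene's strand, with every CG dinucleotide in capitals. They lie at chr9:111311489-111311738 (plus strand) for Trank1, chr9:98033168-98033417 (minus strand) for Clstn2 and chr13:99900684-99900933 (minus strand) for Cartpt. They hold 30, 34 and 22 CG dinucleotides.
Trank1: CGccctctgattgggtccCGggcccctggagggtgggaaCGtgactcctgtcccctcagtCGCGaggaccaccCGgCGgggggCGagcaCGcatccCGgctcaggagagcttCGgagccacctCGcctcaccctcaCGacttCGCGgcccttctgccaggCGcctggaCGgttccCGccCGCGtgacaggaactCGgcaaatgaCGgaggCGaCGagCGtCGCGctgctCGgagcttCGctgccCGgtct
Clstn2: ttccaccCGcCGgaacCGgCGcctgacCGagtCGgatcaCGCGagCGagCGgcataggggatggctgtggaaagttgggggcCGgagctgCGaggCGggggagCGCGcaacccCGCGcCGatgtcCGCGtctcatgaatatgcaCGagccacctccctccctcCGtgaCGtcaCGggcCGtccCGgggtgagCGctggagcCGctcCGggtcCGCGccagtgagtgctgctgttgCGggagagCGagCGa
Cartpt: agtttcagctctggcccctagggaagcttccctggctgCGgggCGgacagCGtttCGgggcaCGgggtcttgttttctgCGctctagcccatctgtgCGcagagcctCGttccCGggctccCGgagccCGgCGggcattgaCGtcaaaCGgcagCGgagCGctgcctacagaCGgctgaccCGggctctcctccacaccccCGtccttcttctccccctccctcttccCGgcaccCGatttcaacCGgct
The 3 promoters do not stand for the CG content of these states. Among genes with a promoter entry the median was 14 for the genes tested, 13 for those called higher and 12 in states L and M (quartiles 7 and 19), so that the examples lie above the upper quartile of L and M. A check of CG content between groups of genes is void, since 68.7% of the genes tested and 71.4% of those in L and M had an entry.

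Trank1 (ENSMUSG00000062296.8, chromosome 9 from 111311739 to 111395775), a gene for a large protein of unclear function, had 0.139, 0.0887 and 0.138 CPM in heterozygous and 8.49, 9.58 and 5.28 CPM in βEedKO islets. The log2 fold change was 5.95 ± 0.53, adjusted p = 0.000118. Clstn2 (ENSMUSG00000032452.12, chromosome 9 from 97444395 to 98033181), which encodes the synaptic membrane protein calsyntenin 2, had 0.697, 0.710 and 0.895 against 12.9, 11.6 and 10.2 CPM (3.91 ± 0.34, adjusted p = 0.000118). Cartpt, the gene of the neuropeptide CART, had 0.906, 0.843 and 0.895 against 7.40, 10.3 and 13.9 CPM (3.57 ± 0.40, adjusted p = 0.000861). In each of these 3 genes the lowest βEedKO library lay well above the highest heterozygous library, and each was also called with βEedKO replicate 1 as the only mutant library (adjusted p = 0.00205, 0.00267 and 0.0198).

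The smallest adjusted p of all genes belonged to Igf2. This imprinted gene encodes insulin-like growth factor 2, a fetal growth factor, and lies next to Ins2. Igf2 (ENSMUSG00000048583.16, chromosome 7 from 142650766 to 142666816) had 4.04, 5.41 and 3.79 CPM in heterozygous islets and 188, 143 and 151 CPM in βEedKO islets. The libraries of the groups lay far apart, and the log2 fold change was 5.18 ± 0.29, adjusted p = 1.68e-06. The antisense gene Igf2os rose with it, from 0, 0.177 and 0.207 to 4.93, 4.11 and 3.55 CPM (4.91 ± 0.83, adjusted p = 0.00942), but the library kit does not mark strand, so reads of the 2 genes cannot be told apart. Igf2 had 9.39, 6.69 and 6.04 CPM in wild-type islets, and βEedKO exceeded wild type by 4.45 (adjusted p = 7.18e-06). The mRNA-binding protein gene Igf2bp3, also expressed mainly before birth, rose from 0.279, 0.133 and 0.207 to 6.78, 9.58 and 4.59 CPM (5.07 ± 0.74, adjusted p = 0.00456). Igf2os and Igf2bp3 are named after their values were seen. All 3 were called whichever of the 6 libraries was left out.

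Of the 15 imprinted genes tested, 3 were called higher and 1 lower, with a median log2 fold change of 0.87. Dlk1, a paternally expressed Notch-like membrane protein gene, rose from 1.04, 1.11 and 0.826 CPM to 8.63, 42.8 and 46.9 CPM, with replicate 1 the lowest of the mutants and still above all heterozygous libraries (5.03 ± 0.58, adjusted p = 0.000936). Nnat, which encodes neuronatin, rose from 20.1, 15.0 and 15.1 to 33.6, 36.2 and 47.3 CPM (1.22 ± 0.23, adjusted p = 0.0142), and its adjusted p was 0.0617, 0.0649 and 0.0633 without heterozygous replicates 2 and 3 and βEedKO replicate 5. Peg3, a zinc-finger gene, fell from 3077, 2842 and 2509.9 to 1304, 721 and 599.8 CPM (-1.68 ± 0.43, adjusted p = 0.0419), and was called in only 1 of the 6 leave-outs, that of βEedKO replicate 1 (adjusted p from 0.0108 to 0.164). Among the maternally expressed noncoding RNAs of the Dlk1 region, Meg3 had 1209.8, 608 and 637 against 1249, 1019.9 and 1054 CPM (adjusted p = 0.427). Sfmbt2, another gene with parental imprinting in mouse and a Polycomb-related protein, was outside the list and rose from 0.139, 0.311 and 0.275 to 9.01, 8.13 and 5.19 CPM (4.88 ± 0.66, adjusted p = 0.00316). It is named after its values were seen.

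Among the 7 cyclin-dependent kinase inhibitors, 1 was called, the product of the Ink4a/Arf locus. Cdkn2a (ENSMUSG00000044303.6, chromosome 4 from 89274471 to 89294653) had 0.418, 0.222 and 0.482 CPM in heterozygous islets, 0.254, 0.233 and 0.424 CPM in wild-type islets and 11.4, 8.63 and 13.2 CPM in βEedKO islets. All 3 mutant libraries lay far above every heterozygous and wild-type library, and the log2 fold change against heterozygous was 4.90 ± 0.42, adjusted p = 0.000118. The call held whichever library was left out. Cdkn1a, the p21 gene, had 42.4, 218 and 210.2 against 72.4, 84.7 and 49.9 CPM (adjusted p = 0.258), high in the libraries with high interferon-induced genes and not in βEedKO replicate 1. Cdkn2b, the neighbour of Cdkn2a, had 8.21, 10.7 and 9.26 against 7.45, 4.39 and 6.54 CPM, without overlap but not called (adjusted p = 0.233).

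**Figure D5:**
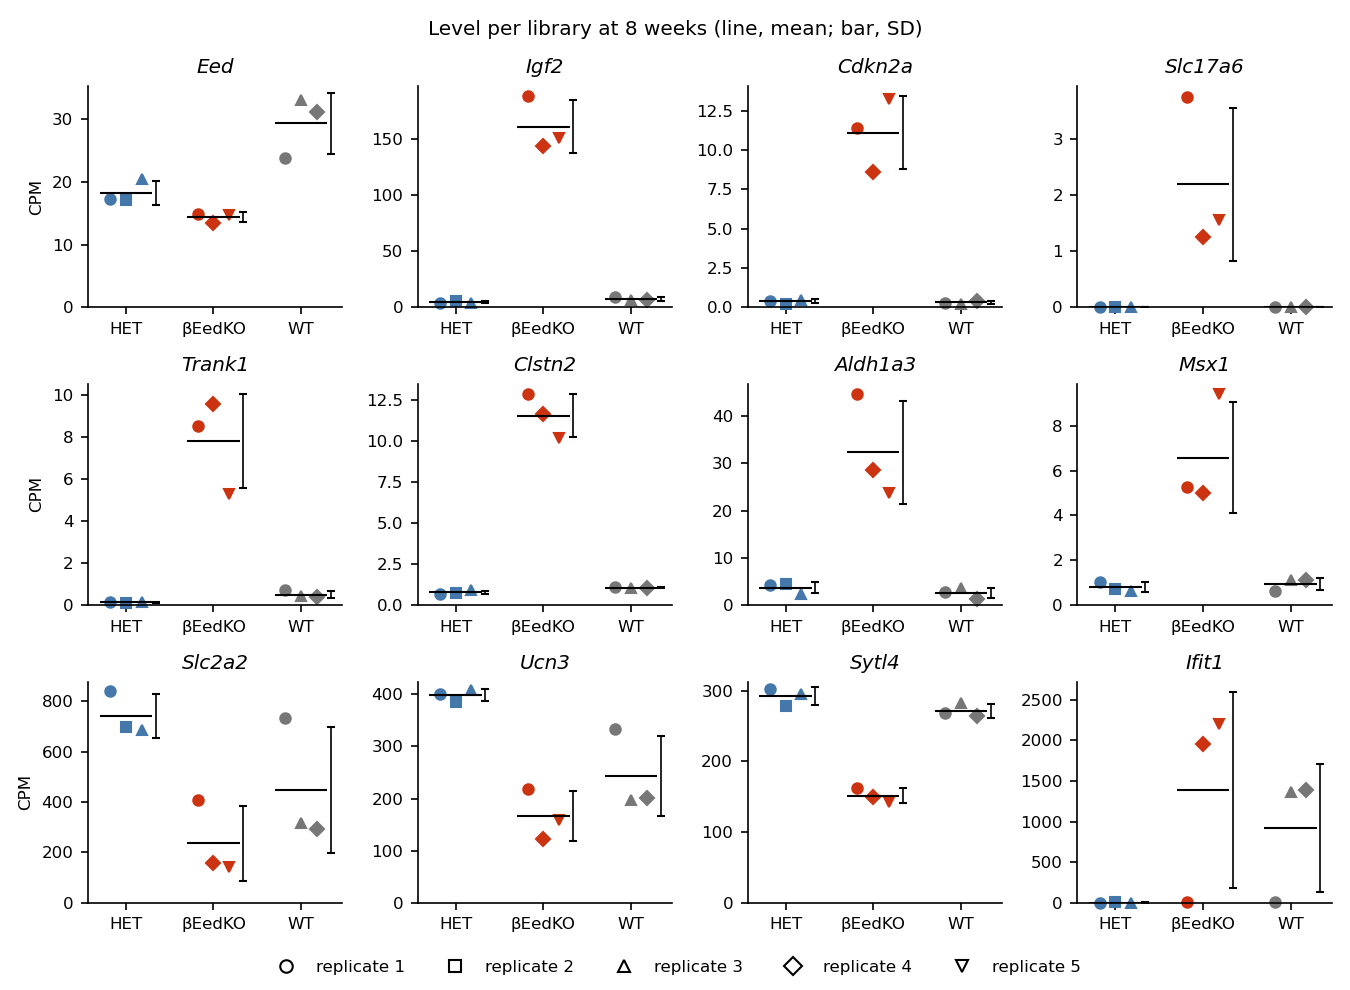
CPM of 12 genes in each library of 8 weeks, by group, with the mean (line) and SD (bar) and the replicate number as marker. Igf2, Cdkn2a, Slc17a6, Trank1, Clstn2, Aldh1a3 and Msx1 are high in all 3 βEedKO libraries. Slc2a2, Ucn3 and Sytl4 are lower in all 3 than in every heterozygous library. In Slc2a2 and Ucn3, βEedKO replicate 1 lies above wild-type replicates 3 and 4. Ifit1 is high in βEedKO replicates 4 and 5 and in wild-type replicates 3 and 4.

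Developmental transcription factors that β cells do not normally use included 21 rises. Of 106 listed genes, 87 passed the filter on low counts, and 21 of them were called higher and 0 lower. Otx2, Pax7 and Gsx2, among the genes that did not pass, had no read in any library of 8 weeks. A gene near 0 elsewhere passes only through the group in which it is high, so these counts describe the genes that passed and not the list. The median log2 fold change of the 87 was 2.47, or 1.68 with the genes at 0 reads in heterozygous islets set at their bound, against 0.01 over all genes tested. In 38 of the 87, every βEedKO library lay above every heterozygous library, against 12.7% of all genes tested. Summed over the list, the heterozygous libraries had 87.3, 83.0 and 75.3 CPM, the wild-type libraries 100, 85.1 and 86.5 CPM and the βEedKO libraries 175, 150.3 and 166 CPM, so that βEedKO replicate 1 was as high as the others. The count of calls was 5, 6 and 7 without heterozygous replicates 1, 2 and 3, 10 and 7 without βEedKO replicates 4 and 5, and 28 higher and 1 lower without βEedKO replicate 1, and 1 with replicate 1 alone, which was Barx2. DESeq2 called 23 higher and 1 lower.

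By family, the forkhead genes Foxf1, Foxf2, Foxc1, Foxd1 and Foxd2, which pattern mesoderm, were called. Foxf1 rose from 0.906, 0.799 and 0.964 CPM to 5.60, 11.4 and 10.2 CPM (3.34 ± 0.43, adjusted p = 0.0021) and stayed called whichever library was left out. Foxc1 rose from 0.906, 0.266 and 1.03 to 4.46, 2.56 and 3.20 CPM (2.23 ± 0.46, adjusted p = 0.0213), with adjusted p from 0.0146 to 0.0637 over the leave-outs, above 0.05 without heterozygous replicate 1 or 2 or βEedKO replicate 5. Foxf2 rose from 0.0697, 0.177 and 0.138 to 1.38, 1.5 and 1.64 CPM (3.44 ± 0.65, adjusted p = 0.0142) and lost its call without heterozygous replicate 1 or 3 (adjusted p from 0.00577 to 0.0689). The values of these genes did not overlap between the groups. Foxd1 and Foxd2 were called only without βEedKO replicate 1 among the 6 leave-outs.

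Homeobox genes of head, limb and sense organ development were also among them. Msx1, a repressor active in limb buds and neural crest, rose from 1.04, 0.710 and 0.620 CPM to 5.27, 5.02 and 9.43 CPM (3.04 ± 0.44, adjusted p = 0.00444). Six3, a regulator of eye and forebrain formation, had 0 reads in the 3 heterozygous and in the 3 wild-type libraries and 1.04, 0.702 and 0.692 CPM in βEedKO islets. Against the 3 reads that a count of 0 over the heterozygous group allows, this is at least 14.3-fold higher (adjusted p = 0.0095). Pitx1, a hindlimb regulator, also had 0 heterozygous reads and had 0.474, 0.451 and 0.346 CPM in βEedKO islets, at least 7.5-fold higher (adjusted p = 0.0128, and 0.0509 without heterozygous replicate 2). Barx1, a stomach regulator, was at least 9.13-fold higher, with 0 heterozygous reads and 0.901, 0.251 and 0.346 CPM (adjusted p = 0.0237, from 0.0153 to 0.0792 over the leave-outs, above 0.05 without any heterozygous library or βEedKO replicate 5). Barx2 rose from 0.627, 1.24 and 0.757 to 27.4, 7.07 and 7.87 CPM, highest in replicate 1 (3.98 ± 0.76, adjusted p = 0.0158, from 0.0114 to 0.0718 over the leave-outs, above 0.05 without any 1 heterozygous library). The low levels of Six3, Pitx1 and Barx1 rest on few reads per library, and such bounds cover counting error only.

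Irx2, which α cells express, rose from 5.99, 5.50 and 7.09 to 17.6, 17.4 and 27.5 CPM (1.75 ± 0.32, adjusted p = 0.0121), but wild-type islets had 9.96, 18.3 and 17.6 CPM and the difference from wild type was 0.44 (adjusted p = 0.699). Its adjusted p was above 0.05 without heterozygous replicate 1 or 2 or βEedKO replicate 5 (from 0.00457 to 0.0576). Emx1, En2, Evx1, Lhx2, Lhx6, Nkx2-3, Six2, Tfap2a and Tfap2e were called as well, each of them in only 1 of the 6 leave-outs, that of βEedKO replicate 1. Evx1, for example, had 1 read over the heterozygous libraries and 0.142, 1.5 and 1.99 CPM in βEedKO islets, 54.8 times as high, with a 95% interval from counting error of 9.44 to 2200.0 (adjusted p = 0.0363). Twist1, a regulator of mesenchyme, had 4.18, 3.76 and 6.66 CPM in βEedKO against 0.209, 1.91 and 0.0689 CPM in heterozygous islets, where replicate 2 with its muscle and fat genes was the highest (adjusted p = 0.139). Zic1 showed the same layout, with 1.57, 1.86 and 1.56 against 0, 1.42 and 0 CPM (adjusted p = 0.305).

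Hox genes, which set position along the body axis, stayed mostly near 0. Of 36 tested, Hoxc9 and Hoxc10 were called higher and 0 lower, with a median log2 fold change of 0.04. Over all genes tested 3.60% were called higher and 1.14% lower, so this count is near the share over all genes. Hoxc10 had 0 heterozygous reads and 0.380, 0.201 and 0.519 CPM in βEedKO islets, at least 5.87-fold higher (adjusted p = 0.0358), and Hoxc9 had 0 and 0.569, 0.150 and 0.519 CPM (adjusted p = 0.0422). Both kept the call in only 1 of the 6 leave-outs, that of βEedKO replicate 1. Hoxd8 had 5.55, 2.86 and 4.15 against 0.627, 2.26 and 0.826 CPM, without overlap (adjusted p = 0.0506), and 0.634, 0.698 and 0.318 CPM in wild-type islets (adjusted p = 0.0164). Several Hox genes, such as Hoxa5 at 4.44 CPM, were highest in heterozygous replicate 2 among the 6 libraries.

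Genes of neurotransmission included transcripts with no read in the control libraries of 8 weeks. Of 16 listed transporters and synthetic enzymes, 15 passed the filter on low counts, and 4 of these were called higher and 2 lower. Here too a gene near 0 elsewhere passes only through the group in which it is high, so the counts describe the genes that passed. Slc17a6 and Slc17a7, the vesicular glutamate transporters VGLUT2 and VGLUT1, had 0 reads in every heterozygous and every wild-type library. Slc17a6 (ENSMUSG00000030500.6, chromosome 7 from 51622006 to 51671119) had 3.75, 1.25 and 1.56 CPM in βEedKO islets, at least 39.8-fold higher than heterozygous (adjusted p = 0.00615), and the call held whichever library was left out. Slc17a7 had 0.949, 1.71 and 0.952 CPM, at least 21.2-fold higher (adjusted p = 0.0166, from 0.00869 to 0.0569 over the leave-outs, above 0.05 without heterozygous replicate 1 or 2 or βEedKO replicate 4 or 5). Slc6a5, the neuronal glycine transporter, had 0.664, 10.9 and 9.0 CPM against 0.209, 0.0444 and 0.138 CPM, with replicate 1 much lower than the other mutants but above all heterozygous libraries (5.73 ± 1.08, adjusted p = 0.0139).

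The 2 enzymes that make GABA moved in opposite directions. Gad2 had 0.139, 0.222 and 0.207 CPM in heterozygous and 0.712, 9.33 and 7.27 CPM in βEedKO islets (4.85 ± 0.82, adjusted p = 0.00943, and adjusted p = 0.0531 without heterozygous replicate 1). Gad1, the main form in mouse islets, fell from 189, 149 and 200.3 CPM to 90.2, 90.8 and 77.7 CPM, without overlap (-1.06 ± 0.23, adjusted p = 0.0263, from 0.0155 to 0.111 over the leave-outs, above 0.05 without heterozygous replicate 1 or 3 or βEedKO replicate 4 or 5). Th, tyrosine hydroxylase of catecholamine synthesis, fell from 42.4, 44.2 and 64.8 to 33.2, 14.8 and 14.7 CPM (-1.27 ± 0.29, adjusted p = 0.0326) and was called in the leave-out of βEedKO replicate 1 only (adjusted p from 0.00129 to 0.133). Slc6a5 was likewise called in 2 of the 6 leave-outs, with adjusted p from 0.00106 to 0.0649, above 0.05 without any heterozygous library or βEedKO replicate 4.

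Several further genes known from neurons rose in all 3 mutant libraries and stayed called whichever library was left out. They are named after their values were seen. Astn1, which encodes the neuronal adhesion protein astrotactin 1, rose from 0.975, 0.488 and 1.24 CPM to 22.5, 26.1 and 22.9 CPM (4.75 ± 0.47, adjusted p = 0.00032). Grik3, a kainate receptor subunit, rose from 0.557, 0.577 and 1.10 to 32.0, 15.8 and 13.8 CPM, highest in replicate 1 (4.79 ± 0.73, adjusted p = 0.00608). Reln, the secreted guidance protein reelin, rose from 5.09, 2.79 and 1.51 to 29.0, 28.7 and 18.2 CPM (3.02 ± 0.52, adjusted p = 0.00989). None of these 3 overlapped between the groups. Crmp1 and Dpysl5 are collapsin response mediators, which act in axon guidance. Crmp1 was already at 19.6, 14.4 and 18.5 CPM in heterozygous islets and rose to 61.3, 55.9 and 61.8 CPM (1.77 ± 0.16, adjusted p = 0.000168), while Dpysl5 rose from 2.44, 1.24 and 3.51 to 15.2, 12 and 11.9 CPM (2.45 ± 0.35, adjusted p = 0.00423). The potassium channel genes Kcnc1, Kcnj4 and Kcnk9 were called too, with log2 fold changes of 2.96, 2.90 and 5.02 (adjusted p = 0.00781, 0.00606 and 0.00771). Iqsec3, a synaptic exchange factor, had 1.18, 0.799 and 1.65 CPM against 8.54, 78.3 and 64.6 CPM, with replicate 1 the lowest mutant (5.39 ± 0.77, adjusted p = 0.00423).

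Tbr1, Barhl1, Shox2, Pou3f1 and Epop also rose, and are named after their values were seen, as are Tchh and Arhgap36. Tbr1, a cortical T-box factor, had 0 heterozygous reads and 0.664, 0.552 and 0.865 CPM in βEedKO islets, at least 11.4-fold higher (adjusted p = 0.00608). Wild-type islets had 0.127, 0.174 and 0.212 CPM of it, and βEedKO against wild type was 1.95 (adjusted p = 0.246). Barhl1, a homeobox gene of the inner ear and cerebellum, rose from 1.11, 1.29 and 1.03 to 12.6, 6.02 and 6.66 CPM (2.87 ± 0.46, adjusted p = 0.00724), and Shox2, a limb and heart regulator, from 0.975, 1.42 and 0.964 to 7.64, 5.52 and 5.02 CPM (2.42 ± 0.35, adjusted p = 0.00444). Pou3f1, a POU factor of Schwann cells and forebrain, had 0.0697, 0.266 and 0.0689 against 2.28, 14.3 and 17.0 CPM (6.19 ± 1.00, adjusted p = 0.00752). Epop, whose product binds PRC2 and elongin, rose from 0.139, 0.399 and 0.275 CPM to 8.07, 16.0 and 18.4 CPM (5.63 ± 0.65, adjusted p = 0.000936). All 5 were called whichever library was left out, and Pou3f1 alone among them was not called with βEedKO replicate 1 as the only mutant (adjusted p = 0.162). Tchh, which encodes the hair follicle protein trichohyalin, rose from 0.418, 0.399 and 0.344 to 6.45, 11.8 and 12.5 CPM (4.70 ± 0.59, adjusted p = 0.00175), and the X-linked Arhgap36, which activates Hedgehog signalling, from 3.06, 2.17 and 2.75 to 35.1, 111 and 115 CPM (5.03 ± 0.56, adjusted p = 0.000861).

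Qpct, Scarf2 and Ppp2r2c, which are named after their values were seen, were already at a few CPM in heterozygous islets. Qpct, glutaminyl cyclase, which modifies the start of peptide hormones, rose from 3.34, 2.79 and 4.13 CPM to 26.7, 36.6 and 42.9 CPM (3.37 ± 0.29, adjusted p = 0.000118). Scarf2, a scavenger receptor family gene, rose from 5.64, 4.92 and 6.82 to 29.5, 35.5 and 39.1 CPM (2.58 ± 0.26, adjusted p = 0.00032). Ppp2r2c, a regulatory subunit of protein phosphatase 2A, rose from 4.46, 1.91 and 6.34 to 30.8, 57.8 and 47.3 CPM (3.43 ± 0.38, adjusted p = 0.000861). The groups did not overlap in these genes, and each was also called with βEedKO replicate 1 alone (adjusted p = 0.00666, 0.0198 and 0.0234). Against wild type they also passed the test, with log2 differences of 2.49, 3.14 and 2.81.

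Ligands and antagonists of the Hedgehog, Wnt and BMP pathways, which signal between embryonic tissues, included further rises. Of 48 listed genes, 40 passed the filter on low counts. Of these, 6 were called higher and 0 lower, and the median log2 fold change was 1.33. A gene near 0 elsewhere passes only through the group in which it is high, so these values describe the genes that passed. Among ligands, Shh had 0 heterozygous and 0 wild-type reads and 0.142, 0.502 and 0.433 CPM in βEedKO islets, at least 5.87-fold higher (adjusted p = 0.043). Bmp2 had 0.627, 0.532 and 0.620 CPM against 1.14, 16.0 and 9.95 CPM (3.92 ± 0.87, adjusted p = 0.0285), with replicates 4 and 5 high and replicate 1 close to the heterozygous range. Wnt10a and Wnt10b were at most 0.139 CPM in heterozygous islets and reached 0.190, 1.86 and 2.51 and 0.237, 2.91 and 2.60 CPM (adjusted p = 0.0413 and 0.0369). Among antagonists, Wif1, the Wnt inhibitory factor, rose from 0.139, 0.133 and 0.138 CPM to 1.57, 0.752 and 1.82 CPM, similar in all 3 mutants (3.26 ± 0.66, adjusted p = 0.0191), and the BMP antagonist Grem1 from 0, 0.0444 and 0.207 to 0.237, 4.21 and 5.71 CPM (5.26 ± 1.23, adjusted p = 0.0335). The list had 0 calls without any 1 of the heterozygous libraries or βEedKO replicate 5 and 1 call without βEedKO replicate 4. Without βEedKO replicate 1 it had 11 calls higher and 1 lower, that of Ptch1 (adjusted p = 0.0447 by edgeR). Of the receptors and targets, Ptch1 had 39.7, 26.5 and 17.4 against 36.4, 31.9 and 38.6 CPM and Gli1 1.23, 0.752 and 0.865 against 0.209, 0.399 and 0 CPM. Neither was called with all libraries in the fit (adjusted p = 0.385 and 0.12).

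Of 10 genes associated with progenitor or dedifferentiated β cells, 3 were called higher and 0 lower. Aldh1a3, a retinaldehyde dehydrogenase used as a marker of such cells, rose from 4.32, 4.35 and 2.27 CPM to 44.6, 28.6 and 23.8 CPM, highest in replicate 1 (3.14 ± 0.61, adjusted p = 0.0166). Its adjusted p ranged from 0.0113 to 0.0637 over the leave-outs, above 0.05 without any 1 of the heterozygous libraries. Sox9, a progenitor and duct regulator, rose from 2.58, 1.60 and 1.31 to 6.83, 7.92 and 8.57 CPM (2.09 ± 0.55, adjusted p = 0.0478), but wild-type islets had 9.58, 5.17 and 3.5 CPM and it was not called against them (adjusted p = 0.901). Cck, the gene of the gut hormone cholecystokinin, had 1 read over the heterozygous libraries and 0.617, 3.46 and 2.16 CPM in βEedKO islets (adjusted p = 0.0394). Sox9 and Cck were called in the leave-out of βEedKO replicate 1 only. Neurog3, the endocrine progenitor factor, had 8.26, 1.00 and 1.99 against 2.58, 1.46 and 2.41 CPM, and the groups overlapped. Ldha and Slc16a1, which β cells normally keep low, were highest in heterozygous replicate 2 (256 and 71.5 CPM).

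Some genes of the β cell's own function fell, and the insulin genes were not called. Of 20 genes of hormone processing, glucose sensing and secretion, 6 were called lower and 1 higher. Ins1 had 36355, 23565 and 39734 CPM in βEedKO against 37597, 35487 and 39664 CPM in heterozygous islets, with overlapping groups (log2 fold change -0.18 ± 0.47, adjusted p = 0.831). Ins2 had 126941, 92204 and 153725 against 114465, 117927 and 144521 CPM (-0.02 ± 0.61, adjusted p = 0.992), and its sign changed with the scaling, to 0.11 by library size alone. Reads of these near-identical genes may be assigned to either. Iapp, the amylin gene, had 15332, 13849.5 and 19776 against 14589, 15417 and 20043 CPM (adjusted p = 0.974), with a sign that changed with the scaling as well, and Chgb, a granule protein gene, had 1354, 1483 and 1879 against 993, 777 and 919.6 CPM, above all heterozygous values but not called (adjusted p = 0.0915).

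The steadiest fall among these was in Sytl4, which encodes granuphilin, a protein that docks insulin granules. Sytl4 (ENSMUSG00000031255.14, chromosome X from 133936385 to 133981812) had 303, 278 and 296 CPM in heterozygous islets and 163, 149 and 142 CPM in βEedKO islets, with little spread in either group. The log2 fold change was -0.95 ± 0.15, adjusted p = 0.00752, the call held whichever library was left out, and against wild type the difference was -0.84 (adjusted p = 0.024). Slc2a2, the glucose transporter GLUT2 of β cells, fell from 841, 697 and 688 CPM to 409, 158 and 143 CPM, with replicate 1 closest to the heterozygous libraries (-1.65 ± 0.41, adjusted p = 0.0408). Wild-type replicates 3 and 4, which like βEedKO replicates 4 and 5 had high interferon-induced genes, had 316 and 293 CPM of it, and wild-type replicate 1 had 736 CPM.

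Ero1lb, a pancreatic oxidase for disulfide bonds of insulin, fell from 1961, 1709 and 1599 to 906, 780.4 and 722 CPM (-1.13 ± 0.26, adjusted p = 0.0332), and Pcsk1, the prohormone convertase that cuts proinsulin, from 283, 275 and 293 to 146, 161 and 132 CPM (-0.95 ± 0.24, adjusted p = 0.0413). Prlr, the prolactin receptor, fell from 244, 219 and 179 to 119, 80.4 and 59.3 CPM (-1.31 ± 0.32, adjusted p = 0.0363). In Ero1lb and Pcsk1 the 3 mutants were near each other and below all 6 control libraries of both genotypes. Trpm5, a cation channel of glucose-stimulated secretion, fell from 110.3, 81.0 and 96.3 to 49.1, 32.5 and 44.0 CPM (-1.20 ± 0.30, adjusted p = 0.0417). Slc2a2, Ero1lb, Pcsk1, Prlr and Trpm5 were each called in only 1 of the 6 leave-outs, that of βEedKO replicate 1, so that the list had 1 gene called lower when any other of the 6 was left out. By library size alone, which raises the median log2 fold change of all genes from 0.01 to 0.16, the list had 0 genes called lower. With replicate 1 as the only mutant, 0 of the 20 were called. The 1 gene called higher, Vgf, a granule peptide precursor, had 23.8, 327 and 331 CPM against 18.1, 22.2 and 24.9 CPM (3.39 ± 0.90, adjusted p = 0.0484), high only in replicates 4 and 5.

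Of 8 transcription factors and maturity genes of β cells, 1 was called lower, where 1.14% of all genes tested were called lower. Ucn3, the peptide urocortin 3 that marks mature β cells, fell from 401, 386 and 408 CPM to 218, 122 and 159 CPM, without overlap (-1.26 ± 0.25, adjusted p = 0.0191, from 0.00412 to 0.0856 over the leave-outs, under 0.05 only without βEedKO replicate 1). Wild-type islets had 333, 198 and 200.4 CPM, and the difference from them was -0.55 (adjusted p = 0.493). Mafa had 80.8, 36.4 and 35.8 against 167, 111 and 147 CPM and Nkx6-1 353, 105 and 103 against 383, 293 and 339 CPM, with replicate 1 near or inside the heterozygous range for Nkx6-1 (adjusted p = 0.132 and 0.219). Pdx1 had 90.4, 46.4 and 47.6 against 104, 90.5 and 122 CPM, and replicate 1 lay just below the lowest heterozygous library (adjusted p = 0.105). The median log2 fold change of the 8 was -0.66, and without βEedKO replicate 1 the test called 5 of them lower. Neurod1 was the 1 member with a positive log2 fold change, 0.37 (adjusted p = 0.412), which was -0.21 with βEedKO replicate 1 as the only mutant.

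Of 14 genes of α, δ, PP and ε cells, the other endocrine cells of the islet, edgeR called 1 higher, Irx2, and 0 lower. Over all genes tested it called 3.60% higher and 1.14% lower. DESeq2 called 5 of the 14 higher and 0 lower. All 14 log2 fold changes were above 0, with a median of 0.63. For βEedKO against wild type 0 of the 14 were called, with a median of 0.01. For heterozygous against wild type the median was -0.7. Gcg, the glucagon gene, had 12352, 15673 and 24737 CPM against 9537, 7657 and 9242 CPM, above all heterozygous values and called by DESeq2 (adjusted p = 0.0364) but not by edgeR (adjusted p = 0.194), while wild-type islets had 11672, 25666 and 29786 CPM. Sst, the somatostatin gene, overlapped between the groups, at 2704, 1364 and 2401 against 2268, 1602 and 1867 CPM. Of 12 duct genes 3 were called higher, the already named Sox9 and 2 more. The median log2 fold change of the 12 was 0.19, and 8 were above 0. Against wild type 0 of them were called, with a median of -0.11. The duct list summed to 1946, 1282 and 1483 CPM in heterozygous and 872, 2588 and 2648 CPM in βEedKO islets, lowest in βEedKO replicate 1. Spp1, osteopontin, had 164, 249.7 and 297 against 35.5, 59.3 and 43.7 CPM (2.36 ± 0.43, adjusted p = 0.0128, from 0.00409 to 0.0638 over the leave-outs, above 0.05 without heterozygous replicate 1 or βEedKO replicate 5). Krt19 had 29.6, 79.7 and 19.8 against 5.78, 2.48 and 2.89 CPM (3.54 ± 0.76, adjusted p = 0.025, from 0.00943 to 0.0933 over the leave-outs, above 0.05 without any 1 heterozygous library or βEedKO replicate 4), and wild-type islets also varied, at 69.8, 15.6 and 16.2 CPM. The endothelial, lymphocyte, mesenchymal and Schwann cell and neuron lists had 0 calls by edgeR, with 0, 1, 0 and 1 genes at an unadjusted p under 0.05, and DESeq2 called 1 gene of the last list higher. Without βEedKO replicate 1, 2 endothelial genes were called lower, and without heterozygous replicate 2, 1 mesenchymal gene was called higher.

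Among the lists, that of interferon-induced genes had the most rises, with high levels mainly in replicates 4 and 5. Of 36 tested, 25 were called higher and 0 lower, with a median log2 fold change of 3.98. The list had 0 calls without heterozygous replicate 1 or 3, 2 calls without heterozygous replicate 2, 2 calls without βEedKO replicate 4 or 5, and 35 calls without βEedKO replicate 1, which alone against the heterozygous libraries gave 0. Against wild type 0 were called, with a median of 0.50. Ifit1, Isg15 and Oas3 are examples from the list. Their promoters are shown because many interferon-induced genes are known to be switched on through the interferon-stimulated response element. The sequences are the 250 bases before the RefSeq start on GRCm38.p6, at chr19:34640639-34640888 (plus strand), chr4:156200819-156201068 (minus strand) and chr5:120777660-120777909 (minus strand). Capitals mark matches to a core of that element, GAAA repeated with any 2 bases between the copies, on either strand, so that a match on the other strand reads as TTTC repeated in the same way.
Ifit1: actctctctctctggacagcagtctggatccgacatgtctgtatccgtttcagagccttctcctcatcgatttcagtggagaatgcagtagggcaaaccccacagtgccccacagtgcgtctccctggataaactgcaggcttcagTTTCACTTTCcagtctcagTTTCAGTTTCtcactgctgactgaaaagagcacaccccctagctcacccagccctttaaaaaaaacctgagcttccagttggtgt
Isg15: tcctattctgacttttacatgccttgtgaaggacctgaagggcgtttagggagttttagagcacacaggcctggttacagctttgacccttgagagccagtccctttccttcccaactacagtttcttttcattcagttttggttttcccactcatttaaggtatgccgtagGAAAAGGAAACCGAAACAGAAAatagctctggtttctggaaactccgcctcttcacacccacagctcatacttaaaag
Oas3: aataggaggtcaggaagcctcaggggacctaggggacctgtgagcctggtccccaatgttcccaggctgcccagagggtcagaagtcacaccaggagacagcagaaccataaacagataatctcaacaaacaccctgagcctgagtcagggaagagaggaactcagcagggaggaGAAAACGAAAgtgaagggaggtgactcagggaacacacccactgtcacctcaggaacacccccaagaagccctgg
The matches begin 104 and 85 bases before the start in Ifit1, at 78, 72 and 66 bases in Isg15, where they overlap each other, and at 75 bases in Oas3. Over all RefSeq promoter windows of this length, 978 of 32851 (2.98%) hold a match. Of the 36 genes of the list, 25 had a promoter entry, and 13 of these (52%) held a match. Among all genes tested with an entry the share was 3.25%. The 3 promoters shown thus do not stand for every member of the list.

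Ifit1, an inhibitor of viral translation, had 2.93, 4.48 and 3.79 CPM in heterozygous islets and 4.32, 1959 and 2199 CPM in βEedKO islets. Replicates 4 and 5 were high and replicate 1 lay inside the heterozygous range, so the groups overlapped although the gene was called (8.53 ± 1.95, adjusted p = 0.0307). Wild-type islets had 6.79, 1358 and 1389.9 CPM, split in the same way between replicate 1 and the others. Isg15, a ubiquitin-like modifier, had 2.09, 2.97 and 2.55 against 1.42, 96.5 and 149 CPM (5.01 ± 1.24, adjusted p = 0.0402), and Oas3, an enzyme that activates RNase L, 0.279, 0.133 and 0 against 0.142, 8.33 and 15.0 CPM (5.75 ± 1.24, adjusted p = 0.0254). Irf7, a regulator of the interferon response, had 7.59, 8.70 and 10.5 against 8.07, 142 and 191 CPM (3.66 ± 0.85, adjusted p = 0.0329). In Isg15, Stat2 and Cxcl10, replicate 1 was the lowest of the 6 libraries.

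In 15 of the 36 genes every βEedKO library, replicate 1 included, lay above all heterozygous libraries, against 12.7% of all genes tested. Mx1 and Oas1a were among these 15. Mx1 had 1.04, 0.710 and 0.826 CPM against 8.87, 177 and 200.3 CPM (7.23 ± 1.35, adjusted p = 0.0134). Its adjusted p was above 0.05 without any 1 heterozygous library, at most 0.0637. Oas1a had 0.975, 1.60 and 0.826 against 3.8, 27.9 and 29.8 CPM (4.15 ± 0.76, adjusted p = 0.0126, above 0.05 without heterozygous replicate 1 or 3, at most 0.0633). Reads of the Oas1 copies and of the Ifit genes can be shared between near-identical sequences. In the noncalled members Rsad2 and Cxcl10 the same libraries were high, at 10.2, 1068 and 956 and 0.807, 1861 and 2279.6 CPM in βEedKO islets against 16.6, 20.4 and 16.6 and 9.68, 6.88 and 9.85 CPM (adjusted p = 0.0525 and 0.0811).

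Genes of MHC class I antigen presentation were high in the same libraries. Of 15 tested, 5 were called higher and 0 lower, with a median log2 fold change of 2.02. The list summed to 901, 1142 and 989.6 CPM in heterozygous and 918, 3244 and 3994 CPM in βEedKO islets. Tap1, a peptide transporter, had 15.3, 16.5 and 14.5 against 13.6, 211 and 218 CPM (3.25 ± 0.79, adjusted p = 0.0373), and Psmb8, an immunoproteasome subunit, 6.55, 9.09 and 7.99 against 10.4, 71.8 and 97.6 CPM (2.92 ± 0.64, adjusted p = 0.0263). H2-T23 was the member in which replicate 1 lay furthest above the heterozygous range, at 46.0, 86.5 and 113 CPM against 31.5, 34.6 and 34.2 CPM (1.29 ± 0.26, adjusted p = 0.0191). The list had 0 calls without any 1 of the heterozygous libraries or βEedKO replicate 4 or 5, and 15 without βEedKO replicate 1. B2m had 90.0, 454 and 592 against 46.5, 155 and 74.2 CPM and was not called (adjusted p = 0.0652).

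Acute-phase and inflammation genes, a list drawn up after their values were seen, had 3 called higher of 16 tested, and they differed in which library was high. Lcn2, lipocalin 2, had 0.139, 0.0887 and 0 CPM in heterozygous and 41.3, 3.81 and 26.5 CPM in βEedKO islets, highest in replicate 1 (8.13 ± 1.00, adjusted p = 0.00157), and was called in all 6 leave-outs. Saa3, a serum amyloid A gene with close copies, had 0.209, 0.0444 and 0 against 0.237, 24.1 and 386 CPM (10.63 ± 2.28, adjusted p = 0.025, from 0.00172 to 0.0972 over the leave-outs), highest by far in replicate 5. Cxcl5, a neutrophil chemokine, had 0 heterozygous reads and 17.2, 6.32 and 8.83 CPM in βEedKO islets, at least 192-fold higher (adjusted p = 0.0176, from 0.0096 to 0.0622 over the leave-outs, above 0.05 without any 1 heterozygous library). Macrophage markers summed to 86.4, 124 and 105 CPM in heterozygous and 96.9, 172 and 357 CPM in βEedKO islets, highest in replicate 5. Of 12 macrophage genes edgeR called 1 higher, the Fc receptor gene Fcgr1, where 3.60% of all genes tested were called higher. In 5 of the 12 the unadjusted p was under 0.05, all of them higher, and DESeq2 called 4 higher and 0 lower. Without βEedKO replicate 1, edgeR called 6 higher and 0 lower. Fcgr1 had 0.285, 3.36 and 24 against 0.418, 0.621 and 0.207 CPM (4.41 ± 1.14, adjusted p = 0.0449). It was called in the leave-out of βEedKO replicate 1 only. The part of macrophages in the values of Saa3 was not tested.

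Further genes were among the 15 largest rises without overlap and with at least 1 CPM in a group. Efna3, the membrane ligand ephrin A3, had 0 heterozygous reads and 0.569, 3.31 and 3.20 CPM in βEedKO islets, at least 37.5-fold higher, and Tceal6, X-linked, 0 and 2.04, 2.06 and 3.89 CPM, at least 42.1-fold higher (adjusted p = 0.00943 and 0.00893). Both were called whichever library was left out. Sp8, a limb and forebrain factor, was at least 32.3-fold and Elfn1, a synaptic adhesion gene, at least 32.6-fold higher, with 0 heterozygous reads each (adjusted p = 0.0349 and 0.0315). Serpina3f, Oas1h, Ifi209, Ms4a4c and Gm12250 were high in replicates 4 and 5, at up to 8.58, 3.76, 22.6, 23.5 and 10.0 CPM, and at most 0.664 CPM in replicate 1. Elfn1 had 0.0474, 3.51 and 2.51 CPM, so it too was high in replicates 4 and 5 only. Of Sp8, Elfn1, Serpina3f, Oas1h, Ifi209, Ms4a4c and Ifit3, each was called in the leave-out of βEedKO replicate 1 only, and Gm12250 lost its call without heterozygous replicate 1 or 2 (adjusted p at most 0.0612). Ifit3, a partner of Ifit1, had 1.18, 2.57 and 1.79 CPM in heterozygous and 4.36, 415 and 554 CPM in βEedKO islets.

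Among the genes that fell, 6 stayed called whichever of the 6 libraries was left out, of which Rhobtb1, Ypel2 and Rassf10 were also called by library size alone. Besides Sytl4 these were Rhobtb1, Ypel2, Rassf10, Zfp110 and Zfp667, of which all but Rassf10 are named after their values were seen. Rhobtb1, which encodes a protein with BTB domains, fell from 144, 149.6 and 123 CPM to 59.4, 39.5 and 43.3 CPM (-1.55 ± 0.20, adjusted p = 0.00183). Zfp110, a zinc-finger gene, fell from 56.3, 59.9 and 55.8 to 32.3, 31.3 and 32.2 CPM with very little spread (-0.84 ± 0.13, adjusted p = 0.00606), but wild-type islets had 38.7, 39.1 and 34.6 CPM. Zfp667 had the same layout, with 67.0, 56.3 and 79.7, then 32.1, 29.8 and 27.7, and 33.9, 39.8 and 37.3 CPM in wild type (-1.18 ± 0.19, adjusted p = 0.0074). Rassf10, which restrains cell growth, fell from 23.5, 18.1 and 19.2 to 4.93, 2.51 and 2.16 CPM (-2.65 ± 0.44, adjusted p = 0.00862), and Ypel2 from 54.5, 50.4 and 46.7 to 25.9, 14.8 and 18 CPM (-1.37 ± 0.22, adjusted p = 0.00724). Of these 6, Sytl4 and Ypel2 were also called against wild type (adjusted p = 0.024 and 0.0315), while the other 4 had adjusted p of 0.145 to 0.647 there.

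Core clock genes, a list drawn up after these values were seen, had lower sums in βEedKO and also in wild-type islets. The list summed to 2652, 2157 and 2620.4 CPM in heterozygous, 1126, 1254 and 1093 CPM in βEedKO and 1046, 1103 and 1206 CPM in wild-type islets. Of 18 genes, Per2 and Usp2 were called lower and 0 higher. Per2, a repressor of the clock, had 223, 186 and 221 CPM in heterozygous, 45.4, 39.7 and 30.6 in βEedKO and 41.5, 44.1 and 65.3 in wild-type islets (-2.44 ± 0.62, adjusted p = 0.0422, from 0.0306 to 0.16 over the leave-outs, under 0.05 only without βEedKO replicate 1). Usp2, a clock-controlled deubiquitinase, had 65.4, 50.0 and 57.5, 13.1, 7.32 and 5.88 and 8.37, 6.16 and 5.24 CPM in the same order (-2.71 ± 0.47, adjusted p = 0.0111, above 0.05 without βEedKO replicate 4 or 5, at most 0.0564). The hour at which islets were taken is not given in the sources used here. The same layout held for 2 of the largest falls, Gpr6, an orphan receptor, with 11.4, 6.70 and 12.9, 1.71, 0.451 and 0.692 and 0.190, 0.349 and 0.159 CPM (-3.41 ± 0.78, adjusted p = 0.0301, under 0.05 only without βEedKO replicate 1 among the leave-outs), and Tppp, a tubulin-binding protein gene, with 20.4, 33.2 and 15.5, 2.37, 4.16 and 2.94 and 3.74, 2.67 and 1.91 CPM (-2.86 ± 0.54, adjusted p = 0.0143, above 0.05 without heterozygous replicate 2 or βEedKO replicate 5).

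In some other falls heterozygous replicate 2 was far above the other libraries. Tnni2, a troponin of fast muscle, was the largest fall by the rule, with 0.488, 111 and 0.207 CPM in heterozygous and 0, 0.0502 and 0 CPM in βEedKO islets, and its adjusted p was 0.0417, or 0.273 without that library and 0.0531, 0.162 and 0.152 without heterozygous replicate 1 and βEedKO replicates 4 and 5. Fmo1 had 12.8, 184 and 14.5 against 6.88, 8.38 and 5.88 CPM and Gpam, of fat synthesis, 28.5, 90.9 and 24.9 against 12.3, 8.28 and 4.24 CPM (adjusted p = 0.041 and 0.0369, or 0.18 and 0.127 without it). Fmo1 also lost its call without βEedKO replicate 4 or 5, and Gpam without any 1 of the 6 libraries other than βEedKO replicate 1. The muscle list had 3 genes called lower and the adipocyte list 2, and both had 0 without heterozygous replicate 1 or 2 or βEedKO replicate 4 or 5. The predicted gene Gm12976, named after its values were seen, had 248, 0.932 and 10373 CPM in heterozygous and 1.04, 2.51 and 0.865 CPM in βEedKO islets, high in heterozygous replicates 1 and 3 only (adjusted p = 0.0408, or 0.0712 and 0.111 without them and 0.137 and 0.156 without βEedKO replicates 4 and 5). The remaining falls by the rule, 4933440M02Rik, Gm10020 and Gm44850, are without an assigned name, and the first fell from 1.25, 1.55 and 1.65 to 0.332, 0.150 and 0.0865 CPM (-2.86 ± 0.51, adjusted p = 0.0119, and 0.0592 without βEedKO replicate 4), while the other two were called in 2 and 1 of the 6 leave-outs.

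Immediate-early genes had lower sums in βEedKO and also in wild-type islets and did not pass the test. The 15 of them, induced within minutes of stimulation or handling, summed to 13524, 7591 and 9016 CPM in heterozygous and 6336, 1751 and 1739 CPM in βEedKO islets, and 0 were called by edgeR or DESeq2, with 2 at an unadjusted p under 0.05. In wild-type islets they summed to 6742, 1206 and 1341 CPM, likewise highest in replicate 1. Fos had 2222, 1259.9 and 1401 against 1884, 71.0 and 53.7 CPM, so that replicate 1 lay inside the heterozygous range and replicates 4 and 5 did not (adjusted p = 0.576). Of 13 genes of the unfolded protein response, 1 was called lower, where 1.14% of all genes tested were called lower. Herpud1, which serves degradation of proteins from the endoplasmic reticulum, fell from 1017, 709.7 and 932 to 321, 284 and 313 CPM (-1.53 ± 0.38, adjusted p = 0.0394), was at 369, 516 and 407 CPM in wild type, and was called in the leave-out of βEedKO replicate 1 only. Hspa5, the chaperone BiP, overlapped between the groups, at 1423, 4231 and 4527 against 3269.9, 2688 and 3487 CPM.

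Fewer genes were called with wild-type islets as the control, a comparison that shares the βEedKO libraries. Against wild type 118 genes were called (0.627%), 109 higher and 9 lower. The difference between heterozygous and wild-type islets was tested directly, and 0 of 18828 genes were called by edgeR, with 2743 genes at an unadjusted p under 0.05, while DESeq2 called 407. Without wild-type replicate 1, the only wild-type library of this age with low interferon-induced genes, edgeR called 601. The noncoding transcript of the Rosa26 locus, Gt(ROSA)26Sor, named after its values were seen, had 4.18, 5.72 and 4.75 CPM in heterozygous, 13.1, 21.8 and 24.1 CPM in βEedKO and 12.2, 13.4 and 14.0 CPM in wild-type islets. It was called against heterozygous (2.00 ± 0.32, adjusted p = 0.00709) and not against wild type (adjusted p = 0.586).

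The difference at 8 weeks could be compared with that at 25 weeks, where both genotypes had 2 libraries. By the paper, each βEedKO library of 25 weeks pooled islets of more animals than those of 8 weeks. It reports overt diabetes in all knockouts by 25 weeks and glucose tolerance at 8 weeks. The 2 βEedKO libraries of 25 weeks had TMM factors of 0.76 and 1.498. The part of these differences in the values below was not tested. In 53 genes (0.281%) the βEedKO against heterozygous difference itself differed between the ages, 21 of them more positive (0.112%) and 32 more negative (0.170%) at 25 weeks. Gata2, a blood and endothelial regulator, was not called at 8 weeks, with 4.13, 3.21 and 3.20 against 2.93, 2.75 and 4.27 CPM (0.09 ± 0.26, adjusted p = 0.849), and was higher at 25 weeks by a log2 fold change of 3.86 (difference 3.77, adjusted p = 0.00229). Ucn3 was lower by -5.26 at 25 weeks, a further -4.0 (adjusted p = 0.00204), and Slc30a8, the zinc transporter of insulin granules, which was not called at 8 weeks (762, 474 and 461 against 1031, 899 and 1030.4 CPM, adjusted p = 0.0763), by -3.45. Igf2 was less raised at 25 weeks, at 3.06 (difference -2.11, adjusted p = 0.0424).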

How the data were processed

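RNA-seq of whole islets was used, from the 16 bulk libraries of 6 groups (3 genotypes at 8 and 25 weeks). The authors mapped read pairs with TopHat2 2.0.13 to GRCm38, counted reads per gene with featureCounts of Subread 1.5.0-p1 on Gencode M9, and deposited these counts without normalization. The strand setting of the counting is not given in the sources used here, and the TruSeq RNA kit named does not mark strand. The library totals were 4645393 to 22925359 reads. The authors also deposited a segmentation of wild-type islet chromatin, letters of states along the autosomes with no measured value. Names and GRCm38 positions came from Gencode M21, whose identifiers covered 47310 of the 47937 genes in the table, and a start site took the letter that covers it.

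Counts were tested with edgeR 4.0.16 in R 4.3.3 (TMM factors, filterByExpr by group, quasi-likelihood test) in 1 fit of all 16 libraries, which share 1 estimate of the spread (common biological coefficient of variation 0.424), as the contrast of 3 βEedKO and 3 heterozygous libraries of 8 weeks. Standard errors were taken from the fold change and its F statistic. The test was tried on simulated counts with 200 changed genes among 18058 tested for this comparison. It recovered 15.2%, 65.7% and 85.1% of changes of 1, 2 and 3 on the log2 scale, with 10 false calls of 121. The changed genes were drawn from those with at least 1 CPM on average in heterozygous libraries. All simulated βEedKO libraries shared 1 mean per gene. These rates therefore do not cover rises from lower levels or a split within the βEedKO group. Library pairs of a group differed beyond sampling noise (chi-square per degree of freedom 35.51 to 189.6), so each library was 1 replicate. CPM are scaled by the TMM factors. Floors and counting intervals cover counting error only.

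Members and gene lists were chosen with earlier results of these data known, and a list described as drawn up after its values were seen supports nothing. Named genes are members of the lists and the 15 largest rises and 10 largest falls among called genes with at least 1 CPM in a group and no overlap, and all other genes were named after their values were seen. Some genes that met the rule are not reported here. Alternatives were scaling by library size alone or by the size factors of DESeq2 1.42.0, the DESeq2 test, no filter, fits of the 6 or the 9 libraries of 8 weeks, and leaving out each library. A fit without βEedKO replicates 4 and 5 was added after seeing the data.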

Additional observations from a re-analysis of the deposited data

Results flagged for a closer look

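In 9 of the genes described, the βEedKO against heterozygous difference at 25 weeks differed from that at 8 weeks by a test of the difference itself in edgeR, in groups of 3 and 3 libraries at 8 weeks and of 2 and 2 at 25 weeks. The values are log2 differences, 25 weeks minus 8 weeks. The difference was more negative at 25 weeks in Barhl1 by -3.81 (from 2.87 to -0.94, adjusted p = 0.0424) and in Igf2 by -2.11 (from 5.18 to 3.06, adjusted p = 0.0424), genes that rose at 8 weeks. Among genes with a log2 fold change below 0 at 8 weeks, all of them called then except Slc30a8, it was more negative in Trpm5 by -4.01 (from -1.20 to -5.21, adjusted p = 0.00389), in Ucn3 by -4.0 (from -1.26 to -5.26, adjusted p = 0.00204), in Slc30a8 by -2.65 (from -0.80 to -3.45, adjusted p = 0.0158) and in Gad1 by -2.38 (from -1.06 to -3.44, adjusted p = 0.0185). It was more positive in Gata2 by 3.77 (from 0.09 to 3.86, adjusted p = 0.00229), in Chgb by 2.54 (from 0.81 to 3.35, adjusted p = 0.027) and in Nnat by 2.73 (from 1.22 to 3.96, adjusted p = 0.00649).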

How the results depend on the processing

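No paired analysis was possible because the βEedKO and heterozygous groups of 8 weeks share only replicate number 1. The count of called genes (892) was 505 by library size alone (479 higher, 26 lower), 2303 by the DESeq2 test (1515 higher, 788 lower), 136 with the 6 libraries compared (115 higher, 21 lower), 299 with the 9 libraries of 8 weeks (218 higher, 81 lower) and 68 without βEedKO replicates 4 and 5 (68 higher, 0 lower), a fit in which the lone library is taken to vary like the other groups. Leaving out 1 library gave 143 to 4014 called, 123 to 2032 higher and 9 to 1982 lower. Without βEedKO replicates 1, 4 and 5 the test called 4014, 172 and 182, without heterozygous replicates 1, 2 and 3 it called 143, 192 and 228, and without 25-week heterozygous replicates 1 and 2 it called 502 and 497. Without wild-type replicate 1 of 8 weeks it called 1359, and without wild-type replicate 2 of 25 weeks 902 higher and 434 lower. The count of lower genes moved by over 1.5 times also without wild-type replicates 3 and 4 of 8 weeks (140 and 127), 25-week wild-type replicates 3 and 4 (119 and 98), and 25-week βEedKO replicate 3 (142). Eed was -0.39 to -0.20 and not called in any of these. Heterozygous against wild type had 5 calls with no filter and 407 by DESeq2, and 0 to 601 with 1 library left out. The age difference had 10 calls by library size alone and 397 by DESeq2, and 14 to 93 with 1 library left out. The share of states L and M among the higher genes was 58.8% without βEedKO replicates 4 and 5. With 1 library left out it was 31.3% without βEedKO replicate 1 and 63.6% without heterozygous replicate 2. It was not computed for the other single leave-outs, so these values are not a range over all of them.

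Signs changed without βEedKO replicates 4 and 5 in B2m (-0.04), Cdkn1a (-0.71), Cxcl10 (-3.44), Fcgr1 (-0.57), Fos (0.20), Hspa5 (-1.15), Ins2 (0.01), Irf7 (-0.16), Isg15 (-0.84), Meg3 (0.12), Neurod1 (-0.21), Nkx6-1 (0.05), Ptch1 (0.15), Rsad2 (-0.82), Stat2 (-0.34), Suz12 (-0.28) and Tap1 (-0.19). Ins2 and Iapp were 0.11 and 0.10 by library size alone, 0.02 and 0.01 by DESeq2 size factors and by the DESeq2 test, and 0.04 and 0.03 with the 6 libraries. With 1 library left out, Ins2 was -0.20 to 0.16, Iapp -0.19 to 0.17, Ins1 -0.33 to 0.02, Ezh2 -0.20 to 0.32, Gata2 -0.04 to 0.36, Suz12 -0.07 to 0.16, Hoxa5 -0.93 to 1.81, Hspa5 -0.15 to 0.48, Ldha -1.59 to 1.44, Neurog3 -0.53 to 1.27, Slc16a1 -1.90 to 2.59 and Sst -0.02 to 0.42. The cause was not tested. Of the 118 named genes that were called, 42 were called in all 6 leave-outs of the libraries compared, 118 without βEedKO replicate 1 and 25 with it as the only mutant.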

Other observations

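Some properties of whole libraries differed within the βEedKO group. Olfactory and vomeronasal receptor genes, which islets are not known to use, summed to 44.6 CPM in βEedKO replicate 1, 23.5 in replicate 4 and 25.8 in replicate 5, against 16.9 to 19.9 CPM in the heterozygous and 18.8 to 20.9 CPM in the wild-type libraries. Noncoding genes took 1.63% of the reads in βEedKO replicate 1 and 0.776% and 0.693% in replicates 4 and 5, and 1.07% to 2.10% in heterozygous islets. Ins1, Ins2 and Gcg together took 14.4% to 21.3% of the reads in the βEedKO and 14.4% to 19.2% in the heterozygous libraries.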
